A study of Mus musculus with 18 samples.

Results

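The heat shock proteins described here are 10 genes chosen by name out of the 24485 genes listed for each library. They are the inducible HSP70 genes Hspa1a and Hspa1b, the constitutive HSP70 gene Hspa8, the HSP110 gene Hsph1, the co-chaperone gene Dnajb1, the cytosolic HSP90 genes Hsp90aa1 and Hsp90ab1, the mitochondrial chaperonin genes Hspd1 and Hspe1, and the heat shock transcription factor gene Hsf1. All 10 were detected in all 18 libraries, so none was lost to a filter on low values. RNA-seq was performed on bone marrow-derived macrophages (BMDMs), grown for several days in L929-conditioned medium, from 3 Il10-/- mice (C57BL/6J). The methods of the study give these mice as adult males, and every group carried the Il10 deletion, so there was no wild-type control. The 6 groups had 3 libraries each. Unstimulated cells received no pretreatment and saline buffer in place of lipopolysaccharide (LPS). The JQ1 and IL-10 groups were pretreated for 12 hours with 500 nM (+)-JQ1 or 10 ng/mL IL-10 and then received saline buffer. The LPS group received 50 ng/mL LPS for 4 hours, and the LPS + JQ1 and LPS + IL-10 groups received the same LPS after 12 hours of 500 nM (+)-JQ1 or 10 ng/mL IL-10. The labels call the cells without a pretreatment untreated, whereas the methods name a vehicle control before LPS. The series text calls the cultures biologically matched, but the sources used here do not say that a replicate number marks a mouse. The drug (+)-JQ1 occupies the bromodomains through which BET proteins hold on to acetylated histones, LPS is a bacterial product sensed by Toll-like receptor 4, and IL-10 is a cytokine that restrains macrophage inflammation.

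Heat shock proteins are chaperones that bind unfolded or folding proteins. Under protein stress the transcription factor HSF1 is released from chaperones, assembles into trimers and binds heat shock elements, which are inverted repeats of the letters GAA, at genes such as Hspa1a, Hspa1b, Hsph1, Dnajb1 and Hsp90aa1. In the HSP70 cycle a DNAJ protein hands over the client protein and stimulates ATP hydrolysis, and an HSP110 protein helps to exchange the nucleotide. HSP90 acts later, on partly folded kinases, receptors and transcription factors. In macrophages, HSP90 serves several signaling kinases downstream of Toll-like receptors.

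Total expected counts per library ranged from 6781952 to 28289498, and the members were covered by between 37.7 (Hspa1b) and 49051 (Hspa8) of them. Among 8 macrophage markers, Csf1r (576 to 1791 TPM), Lyz2 (9722 to 24850), Cd68 (1108 to 2157), Adgre1 (448 to 1128) and Cd14 (475 to 2146) were high in every library. Itgam (45.8 to 461 TPM), Mertk (21.8 to 120) and Fcgr1 (9.92 to 495) were much lower in some. The 8 summed to 22970 to 24770 TPM in unstimulated and 14320 to 15760 TPM in LPS libraries. The markers of other cell types were low but not all at 0. The 5 neutrophil markers summed to 21.1 to 74.0 TPM in unstimulated, 32.4 to 45.9 in LPS, 6.76 to 13.4 in JQ1 and 10.7 to 23.9 in LPS + JQ1 libraries, mostly from S100a8 and S100a9, whereas Ly6g was at 0 in all libraries. Among the T cell markers Cd3e did not exceed 0.09 TPM and Cd4, which macrophages can also express, had 1.72 to 8.53 TPM. Cd79b reached 4.45 TPM. The endothelial markers Cdh5 and Kdr summed to 7.48 to 9.53 TPM in LPS and 0.04 to 0.11 in LPS + JQ1 libraries. The part of such cells in the results was not tested. Il10 itself had 27.1 to 177 normalised counts in the libraries, all of them labelled Il10-/-. The deleted stretch of Il10 is not given in the sources used here, so these counts do not check the labels.

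The first comparison asked what LPS did to the heat shock genes. Relative to unstimulated cells, LPS raised 7 of the 10 genes, lowered Hsph1 and left Hspe1 and Hsf1 without a call (DESeq2 Wald test, adjusted p under 0.05). Over all genes tested, 31.6% were called higher and 32.9% lower in this comparison. The direction of the smaller changes depended on the scaling. Median-of-ratios scaling, used throughout unless stated, left the median expressed gene at a log2 fold change of -0.03 with LPS, whereas scaling to the library total put it at -0.96 and TPM at -0.70. Scaled to the library total, 3 of the 10 genes were called higher with LPS and 5 lower, where 15.2% of all genes were called higher and 60.5% lower. With TPM, 4 were called higher and 5 lower (20.2% and 66.8% of all genes). The share of members called lower was thus no larger than that of all genes under these scalings. Hspa1a, Hspa1b and Hsp90aa1 were called higher and Hsph1 lower under each of the 4 scalings compared (median-of-ratios, TMM, library total and TPM). In bulk libraries such as these, a change in the RNA of each cell cannot be told apart from a change in the make-up of the culture.

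The second comparison asked what BET inhibition did, with and without LPS. JQ1 alone raised 6 of the 10 genes and lowered Hsph1, where 21.9% of all genes tested were called higher and 23.7% lower. With library totals as the scale, 4 were higher and 2 lower (12.2% and 33.4% of all genes). In LPS-stimulated cells, JQ1 raised 6 genes and lowered Hspa8, where 24.4% of all genes were called higher and 32.9% lower. Scaled to the library total, or with TPM, JQ1 in LPS-stimulated cells raised 9 of the 10 genes and still lowered Hspa8. Of all genes, 37.7% were then called higher and 20.4% lower with library totals, and 43.1% and 25.7% with TPM. There the median expressed gene lay at -0.09 with median-of-ratios scaling and at 0.29 with library totals. IL-10 was called for fewer of these genes than JQ1 was, and for fewer of all genes. It raised Hspa8 alone among the 10 without LPS (1.8% of all genes called higher and 1.01% lower), and it raised Dnajb1 and lowered Hspa1b and Hsp90ab1 with LPS (8.38% higher and 8.81% lower). Scaled to library totals, Dnajb1 and Hspa8 were called higher and Hspa1b lower in the latter comparison (12.8% and 5.23% of all genes).

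**Figure D1:**
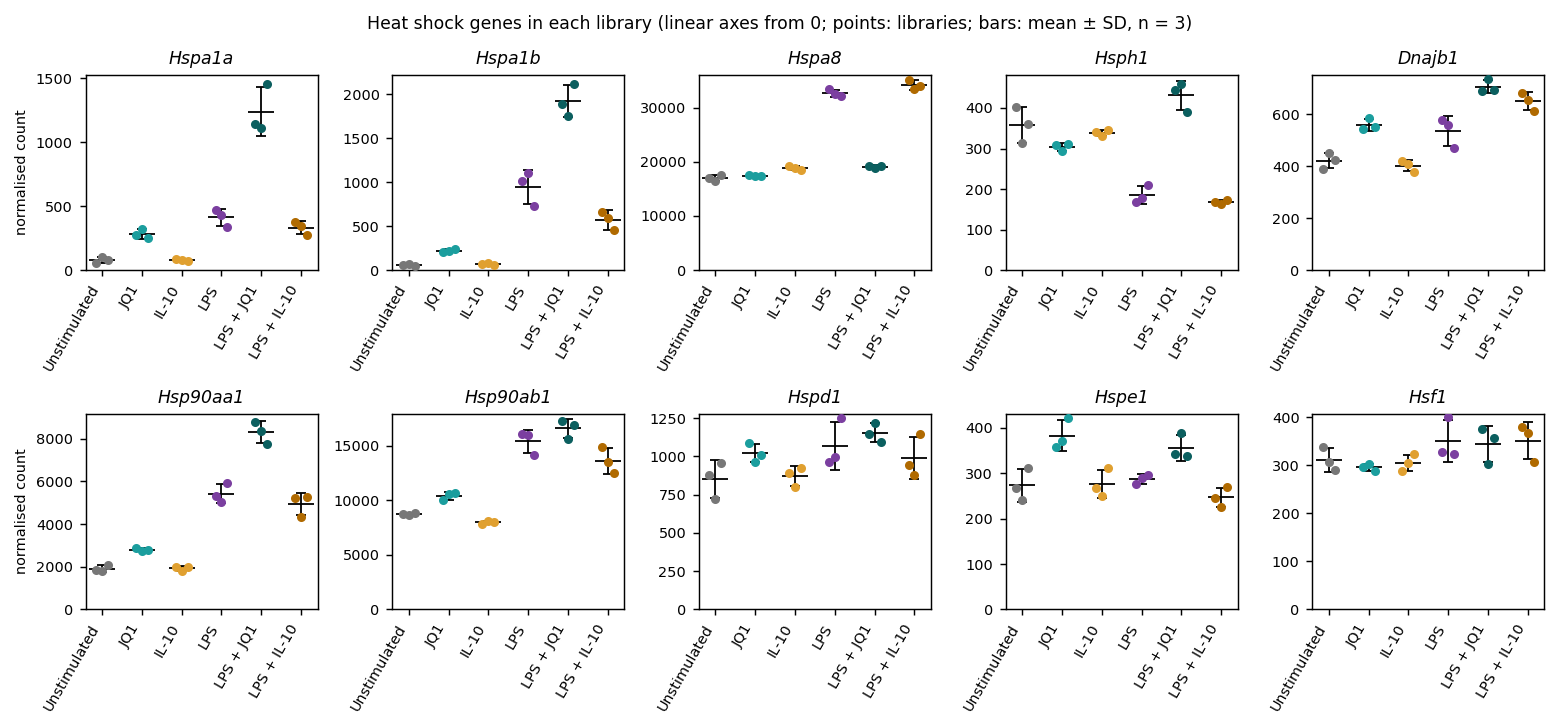
Normalised counts (expected counts divided by the size factor of the library; linear axes that start at 0) of the 10 heat shock genes in each of the 18 libraries, by treatment group. Points are libraries, and bars give the mean ± SD (n = 3). Hspa1a and Hspa1b are highest in the 3 LPS + JQ1 libraries, Hspa8 in the LPS and LPS + IL-10 libraries, and Hsph1 is lowest in the same LPS and LPS + IL-10 libraries.

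Hspa1a and Hspa1b encode nearly the same HSP70 protein, the form that cells make in quantity after heat shock. Hspa1a lies on chromosome 17 at 35106144 to 35109069 and Hspa1b at 35093381 to 35096183, both on the minus strand of mm9 (GENCODE vM1). Of all stretches of 50 bases in the Hspa1a transcript, 59.4% also occur in the Hspa1b transcript. Within the coding sequence the share is 82.3%, and in the 3′ untranslated region it is 0.0%, so reads from the coding sequence were divided between the genes by estimation. For that reason their sum is given beside each gene. Hspa1a also overlaps Gm20481 on the other strand, and the quantification was not set to use strand, so some of its reads could belong to that gene.

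The promoters are shown because both genes rose in the same groups. Both were in the RefSeq promoter table (GRCm38.p6), and an exact match placed them on mm9. The windows below hold the letters GAANNTTC, a pair of inverted repeat units of the heat shock element, printed in capitals with the N bases in lower case.
Hspa1a, chr17:35109192-35109211, minus strand: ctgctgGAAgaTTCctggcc
Hspa1b, chr17:35096274-35096293, minus strand: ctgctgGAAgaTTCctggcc
The 20 bases are identical and lie 110 to 91 bases before the start in both genes. A pair of units (GAANNTTC or TTCNNGAA, each of which reads the same on both strands) occurs in 15.1% of the 32851 promoters of 300 bases in the table. Both searched promoters of these genes lacked the stricter motif of 3 units, GAANNTTCNNGAA on either strand, which occurs in 0.603% of promoters.

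Hspa1a had 54.8, 103 and 78.4 normalised counts in the 3 unstimulated libraries and 469, 431 and 334 in the LPS libraries. Hspa1b had 54.8, 64.3 and 48.3 in the unstimulated libraries and 1014, 1098 and 728 in the LPS libraries. For both genes all LPS libraries lay above all unstimulated libraries. The log2 fold change was 2.43 ± 0.20 (SE, adjusted p = 6.63e-34) for Hspa1a and 4.12 ± 0.20 (adjusted p = 2.93e-96) for Hspa1b. Summed, the pair rose from 135 ± 29.7 to 1358 ± 257 (SD, n = 3), a 10.3-fold rise.

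JQ1 alone brought Hspa1a to 272, 322 and 248 normalised counts and Hspa1b to 208, 212 and 242. No JQ1 library overlapped the unstimulated libraries for either gene. The rises were similar in size, 1.88 ± 0.20 on the log2 scale for Hspa1a (adjusted p = 6.72e-20) and 2.02 ± 0.20 for Hspa1b (adjusted p = 4.38e-22).

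LPS and JQ1 together gave the highest levels of both genes. The LPS + JQ1 libraries had 1142, 1111 and 1459 normalised counts of Hspa1a and 1884, 1754 and 2119 of Hspa1b. Relative to LPS alone, Hspa1a was 3.01-fold higher (log2 fold change 1.59 ± 0.18, adjusted p = 1.24e-18) and Hspa1b 2.03-fold higher (1.02 ± 0.16, adjusted p = 2.15e-09). Relative to JQ1 alone, Hspa1a was 4.41-fold and Hspa1b 8.70-fold higher (adjusted p = 7.48e-33 and 5.53e-74). The JQ1 effect on Hspa1b was smaller with LPS than without, by -1.0 ± 0.26 on the log2 scale (interaction, adjusted p = 5.41e-04). That difference did not pass when libraries were scaled to their totals (-0.44, adjusted p = 0.127) or with TPM (-0.19, adjusted p = 0.394). For the summed pair it was -0.71 ± 0.23 (adjusted p = 0.00784), and -0.16 (adjusted p = 0.574) when scaled to library totals. For Hspa1a the interaction was -0.29 (95% interval -0.81 to 0.23, adjusted p = 0.404).

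The IL-10 effect on Hspa1b was called with LPS and not without it. Without LPS the IL-10 libraries had 65.6, 86.1 and 57.3 normalised counts of Hspa1b, overlapping the unstimulated libraries (0.35 on the log2 scale, adjusted p = 0.706). With LPS the counts fell to 664, 591 and 452, all below the LPS libraries (-0.74 ± 0.17, adjusted p = 1.54e-04), and the interaction of LPS and IL-10 passed (-1.09 ± 0.27, adjusted p = 0.00149). Hspa1b was the single member with a called interaction of LPS and IL-10, where 7.44% of all genes tested had one. Hspa1a had 378, 344 and 275 with LPS + IL-10, which overlapped the LPS libraries (-0.31, 95% interval -0.67 to 0.04, adjusted p = 0.272). The sum of the pair was lower with LPS + IL-10 than with LPS by -0.59 ± 0.16 (adjusted p = 0.00207).

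Hspa8 encodes the constitutive HSC70, the housekeeping HSP70 that works in protein folding, vesicle uncoating and chaperone-mediated autophagy. The gene lies on chromosome 9 at 40609067 to 40613283 on the plus strand and holds the small nucleolar RNA genes Snord14c, Snord14d and Snord14e. It was the most abundant member in each group by TPM, the authors' length-scaled measure. Unstimulated libraries had 17049, 16409 and 17506 normalised counts, and LPS libraries had 33404, 32558 and 32150. The groups did not overlap, and the rise was 0.94 ± 0.04 on the log2 scale (adjusted p = 3.43e-158). In TPM the change was from 1219 ± 80.9 to 1367 ± 76.5 (SD, n = 3), and scaled to the library total it was 0.02 (adjusted p = 0.728).

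JQ1 lowered Hspa8 in LPS-stimulated cells, where it raised Hspa1a and Hspa1b. Without LPS, JQ1-treated cells had 17500, 17316 and 17323 normalised counts of Hspa8, a difference of 0.03 from unstimulated cells (95% interval -0.04 to 0.10, adjusted p = 0.494). With LPS, JQ1 lowered it to 19321, 18785 and 19302 (-0.77 ± 0.04, adjusted p = 6.03e-106). In normalised counts this was close to the 18830 ± 410 of IL-10-treated cells without LPS. In TPM it was not, with 987 ± 28.9 in LPS + JQ1 libraries, the lowest group mean, and 1402 ± 47.8 in IL-10 libraries. The interaction of LPS and JQ1 was -0.80 ± 0.05 (adjusted p = 1.7e-56). It stayed below 0 and passed under every alternative run, with -0.25 (adjusted p = 5.61e-05) as the value scaled to library totals. LPS on top of JQ1 raised Hspa8 by 0.14 ± 0.04 (adjusted p = 2.02e-04), a direction that turned to -0.24 when scaled to library totals (adjusted p = 3.26e-08) and to -0.13 with TPM (adjusted p = 0.0787). LPS + IL-10 libraries had 35214, 33516 and 33993, and their difference from LPS alone was 0.07 (95% interval -0.0019 to 0.13, adjusted p = 0.207). The rise with IL-10 alone was 0.15 ± 0.04 (adjusted p = 0.0022), with all IL-10 libraries (19260, 18784 and 18445) above all unstimulated ones. It did not pass without IL-10 replicate 1 (0.13, adjusted p = 0.0811) or in edgeR (adjusted p = 0.311). The other 9 members had adjusted p-values of 0.557 or above with IL-10 alone.

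Hsph1 encodes HSP105, an HSP110 protein that exchanges nucleotides on HSP70 and takes part in pulling apart aggregates. It moved opposite to Hspa1a and Hspa1b with LPS. Unstimulated libraries had 403, 313 and 360 normalised counts, LPS libraries 167, 179 and 209, and LPS + JQ1 libraries 444, 459 and 390. LPS thus lowered it by -0.97 ± 0.12 on the log2 scale (adjusted p = 2.56e-16), and JQ1 in LPS-stimulated cells raised it by 1.22 ± 0.12 (adjusted p = 5.95e-25), to levels that overlapped those of unstimulated cells. Neither the LPS libraries nor the LPS + IL-10 libraries (169, 164 and 174) reached any library of the other 4 groups.

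JQ1 alone had the opposite sign. Hsph1 had 308, 294 and 312 normalised counts in the JQ1 libraries (-0.25 ± 0.11, adjusted p = 0.0382). The call did not pass without Unstimulated replicate 1 (-0.16, adjusted p = 0.281) or Unstimulated replicate 3 (adjusted p = 0.089), or without JQ1 replicate 1, 2 or 3 (adjusted p = 0.0853, 0.134 and 0.071). The interaction of LPS and JQ1 was the largest among the 10 genes, 1.47 ± 0.16 (adjusted p = 1.65e-19), and it passed under every alternative run. LPS on top of JQ1 raised Hsph1 by 0.50 ± 0.10 (adjusted p = 4.98e-06), where LPS without JQ1 had lowered it, but scaled to library totals this rise was 0.13 (adjusted p = 0.326).
The Hsph1 gene lies on chromosome 5 at 150416862 to 150438951 on the minus strand. Its promoter window below is shown because Hsph1 went against Hspa1a and Hspa1b with LPS and with them when JQ1 was added. The letters TTCNNGAA are in capitals, with the N bases in lower case.
Hsph1, chr5:150438931-150438950, minus strand: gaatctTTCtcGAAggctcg
By the GENCODE position of the gene, the window lies just inside its start, whereas the RefSeq starts lie further in. The window ends 20 bases before the first of 2 RefSeq starts. Both Hsph1 promoters also hold a motif of 3 units, which begins 36 bases after that start.

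**Figure D2:**
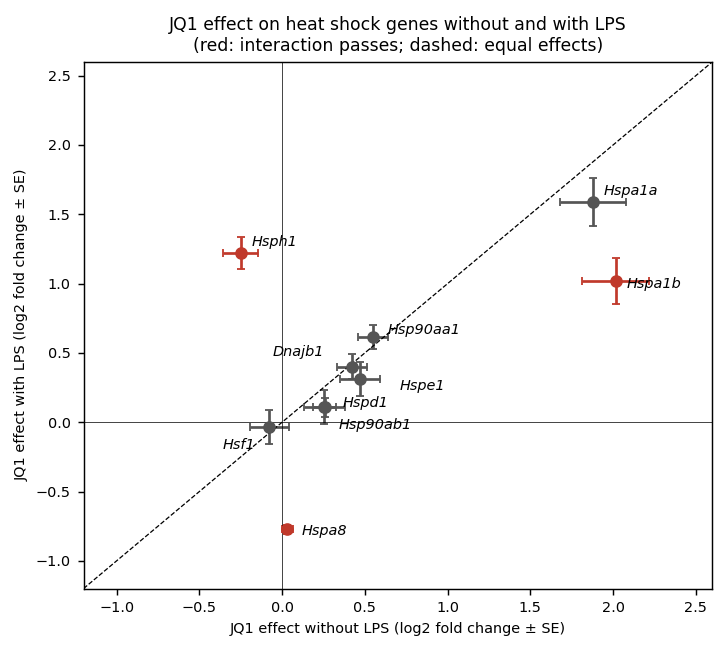
The JQ1 effect without LPS (x axis, JQ1 against Unstimulated) and with LPS (y axis, LPS + JQ1 against LPS) for the 10 heat shock genes, as log2 fold changes ± SE from DESeq2. Genes with a called interaction are red and the dashed line marks equal effects. Hsph1 lies far above the line at -0.25 and 1.22, Hspa8 below it at 0.03 and -0.77, and Hspa1b below it at 2.02 and 1.02.

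The interaction test asked directly whether JQ1 acted differently with LPS. It was called for 3 of the 10 genes, Hsph1, Hspa8 and Hspa1b, where 41.5% of all genes tested had a called interaction. The share of the members was thus no higher than that of all genes. Scaled to library totals or with TPM, 6 of the 10 passed (Dnajb1, Hsf1, Hsp90aa1, Hsp90ab1 and Hsph1 above 0, and Hspa8 below 0), against 52.3% of all genes with library totals and 59.8% with TPM. The median interaction over expressed genes was 0.50 with library totals and -0.05 with median-of-ratios scaling.

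Dnajb1 encodes HSP40, the DNAJ protein that serves the inducible HSP70 and is itself a target of HSF1. It lies on chromosome 8 at 86132074 to 86135801 on the plus strand, and neither of its RefSeq promoters held either motif. It rose with each treatment that raised Hspa1a, though by less. Unstimulated libraries had 390, 450 and 423 normalised counts, JQ1 libraries 542, 587 and 552, LPS libraries 577, 560.4 and 469, and LPS + JQ1 libraries 690.2, 735 and 694. JQ1 raised it by 0.42 ± 0.09 on the log2 scale without LPS (adjusted p = 1.37e-05) and by 0.40 ± 0.09 with LPS (adjusted p = 2.13e-05), so the effects differed by -0.02 (95% interval -0.27 to 0.23). That difference became 0.54 when scaled to library totals (adjusted p = 4.94e-05) and 0.48 with TPM (adjusted p = 4.73e-04). The rise with LPS alone (0.36 ± 0.09, adjusted p = 2.33e-04) reversed to -0.57 when scaled to library totals (adjusted p = 2.97e-10) and to -0.41 with TPM (adjusted p = 2.3e-05). Dnajb1 was the one member called higher with IL-10 in LPS-stimulated cells. LPS + IL-10 libraries had 683, 657 and 612 (0.28 ± 0.09, adjusted p = 0.0161), all above the LPS libraries. The call was lost without LPS replicate 3 (adjusted p = 0.171), LPS + IL-10 replicate 1 (adjusted p = 0.0912) or LPS + IL-10 replicate 2 (adjusted p = 0.0674). Its interaction of LPS and IL-10 was 0.33 (adjusted p = 0.102), and passed without LPS + IL-10 replicate 3 (0.38, adjusted p = 0.0491).

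Hsp90aa1 and Hsp90ab1 encode the inducible and the constitutive form of cytosolic HSP90. Hsp90aa1 lies on chromosome 12 at 111928815 to 111940938 and Hsp90ab1 on chromosome 17 at 45704724 to 45710220, both on the minus strand. The inducible gene moved more. Hsp90aa1 had 1841, 1805 and 2085 normalised counts in unstimulated, 2877, 2725 and 2786 in JQ1, 5318, 5029 and 5920 in LPS, and 8770, 8365 and 7747 in LPS + JQ1 libraries. These 4 groups did not overlap. LPS raised it by 1.5 ± 0.09 on the log2 scale (adjusted p = 2.5e-62), JQ1 by 0.55 ± 0.09 without LPS (adjusted p = 8.99e-09) and by 0.61 ± 0.09 with LPS (adjusted p = 1.45e-11). IL-10 libraries (1968, 1803 and 1983) overlapped the unstimulated ones, and LPS + IL-10 libraries (5195, 4322 and 5274) overlapped the LPS ones (-0.14, 95% interval -0.31 to 0.04, adjusted p = 0.35).

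Hsp90ab1 stood higher in level and moved less. It had 8750.2, 8629 and 8805 normalised counts in unstimulated, 16040.2, 16036 and 14170 in LPS, and 17280.0, 15645 and 16873 in LPS + JQ1 libraries. The LPS rise was 0.82 ± 0.07 on the log2 scale (adjusted p = 7.58e-33), but it was 0.04 with TPM (adjusted p = 0.472) and -0.11 when scaled to library totals (adjusted p = 0.0902). JQ1 raised it by 0.26 ± 0.07 without LPS (adjusted p = 5.73e-04), a call that was lost with library totals (0.08, adjusted p = 0.282) and TPM (0.05, adjusted p = 0.428). With LPS the JQ1 difference was 0.11 (95% interval -0.03 to 0.24, adjusted p = 0.172), and it passed with TMM scaling (0.22, adjusted p = 0.00284), in edgeR (0.20, adjusted p = 0.0196) and scaled to library totals (0.48, adjusted p = 1.56e-15). In LPS-stimulated cells IL-10 lowered Hsp90ab1 by -0.18 ± 0.07 with an adjusted p of 0.0494, close to the threshold, and of 0.0555 with the replicate block. The LPS + IL-10 libraries (14869.9, 13495 and 12515) overlapped the LPS libraries, and the call was absent with TMM (adjusted p = 0.0913), library totals (adjusted p = 0.377) and TPM (adjusted p = 0.43). The adjusted p was 0.218 to 0.22 without LPS replicate 1 or 2, 0.159 without LPS + IL-10 replicate 2 and 0.244 without LPS + IL-10 replicate 3.

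Hspd1 encodes HSP60, the barrel-shaped chaperonin of mitochondria, and Hspe1 encodes HSP10, the lid that closes it. The genes stand head to head on chromosome 1. Hspd1 spans 55134679 to 55145087 on the minus strand and Hspe1 spans 55144976 to 55148151 on the plus strand, so their annotations overlap. The promoter windows below, from the second Hspd1 promoter and the Hspe1 promoter in the RefSeq table, are shown because they are the same 30 bases read from opposite strands. All units of the heat shock element are in capitals.
Hspd1, chr1:55144897-55144926, minus strand: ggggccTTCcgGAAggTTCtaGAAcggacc
Hspe1, chr1:55144897-55144926, plus strand: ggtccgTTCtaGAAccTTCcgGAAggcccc
The window holds 2 overlapping matches of the motif of 3 units, which occurs in 0.603% of promoters. The other Hspd1 promoter held neither motif.

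Changes of this pair were small. Hspd1 had 876, 719 and 959 normalised counts in unstimulated, 963, 995 and 1251 in LPS, 1085, 965 and 1011 in JQ1, and 1147, 1219 and 1097 in LPS + JQ1 libraries. The LPS libraries all lay above the unstimulated ones, and the rise was 0.32 ± 0.12 on the log2 scale (adjusted p = 0.0167). It did not pass with TMM scaling (0.24, adjusted p = 0.0783), or without Unstimulated replicate 2 (0.22, adjusted p = 0.124) or LPS replicate 3 (0.19, adjusted p = 0.164). It reversed to -0.61 when scaled to library totals (adjusted p = 1.69e-05). The JQ1 difference without LPS was 0.25 (adjusted p = 0.0825), and 0.35 without Unstimulated replicate 3 (adjusted p = 0.0294).

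Hspe1 was called higher with JQ1 both without and with LPS. It had 267, 240.2 and 312 normalised counts in unstimulated, 357, 371 and 421 in JQ1, 276, 289.5 and 297 in LPS, and 342, 389.6 and 337 in LPS + JQ1 libraries. JQ1 raised it by 0.47 ± 0.12 on the log2 scale without LPS (adjusted p = 3.37e-04) and by 0.31 ± 0.12 with LPS (adjusted p = 0.0227), with no overlap of libraries in either case. Without LPS the call was lost with library totals (0.29, adjusted p = 0.0504) and TPM (0.29, adjusted p = 0.0815). With LPS it was lost without LPS replicate 1 (adjusted p = 0.0802), LPS replicate 2 (adjusted p = 0.0527) or LPS + JQ1 replicate 2 (adjusted p = 0.132). LPS alone gave 0.06 (95% interval -0.19 to 0.30, adjusted p = 0.719), and -0.87 when scaled to library totals (adjusted p = 1.29e-10).

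Hsf1 encodes the transcription factor that drives the heat shock response, and its activity is set mainly on the protein, which RNA-seq does not measure. The gene lies on chromosome 15 at 76307865 to 76331402 on the plus strand. Group means ran from 296 ± 6.64 (JQ1) to 351 ± 43.4 (LPS) normalised counts (SD, n = 3), and each group overlapped its neighbours in that order. No comparison called it in the DESeq2 fit. The LPS difference was 0.18 (95% interval -0.06 to 0.41, adjusted p = 0.19), and the JQ1 difference in LPS-stimulated cells was -0.03 (95% interval -0.27 to 0.20, adjusted p = 0.831). Scaled to library totals these became -0.75 (adjusted p = 3.06e-10) and 0.34 (adjusted p = 0.00742). LPS on top of JQ1 gave 0.22 (adjusted p = 0.102), which passed with TMM (adjusted p = 0.0422) and without LPS + JQ1 replicate 2 (0.31, adjusted p = 0.0329).

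**Figure D3:**
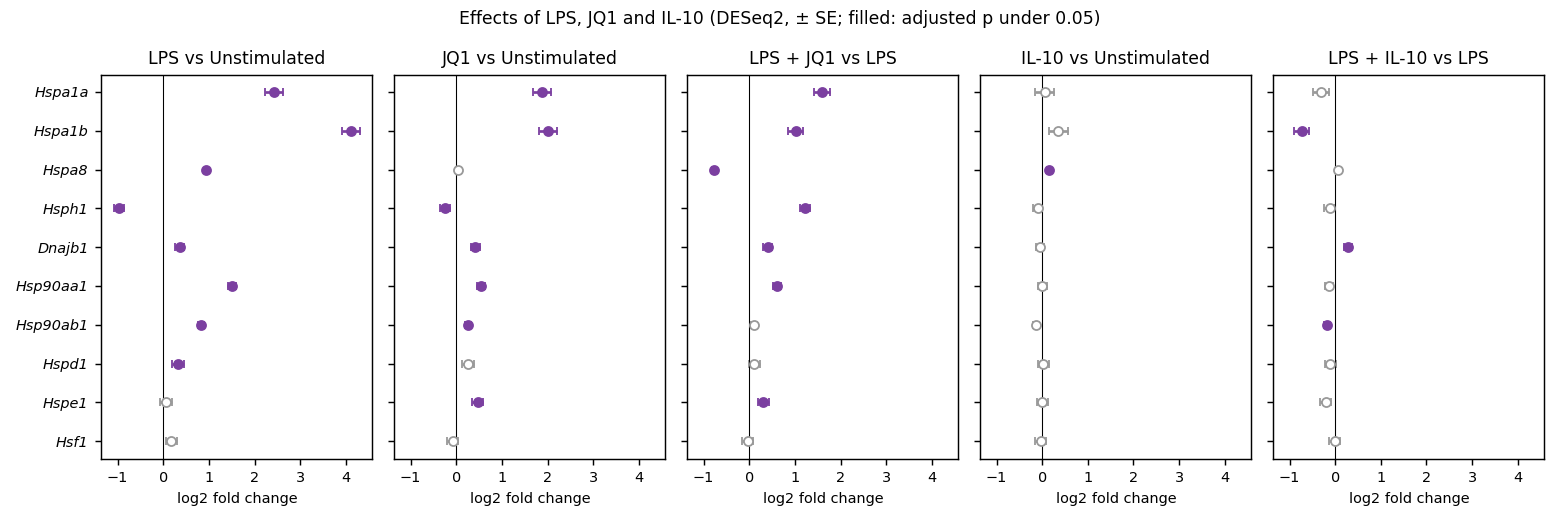
Log2 fold changes ± SE from DESeq2 for the 10 heat shock genes in 5 comparisons. Filled points passed an adjusted p of 0.05. The filled points include 8 genes for LPS, 7 for JQ1 without LPS, 7 for JQ1 with LPS, 1 for IL-10 without LPS and 3 for IL-10 with LPS.

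The direct comparison of the pretreatments before LPS set JQ1 against IL-10. Hspa1a (1.90 ± 0.18 on the log2 scale), Hspa1b (1.76 ± 0.17), Hsph1 (1.35 ± 0.12), Hsp90aa1 (0.75 ± 0.09), Hspe1 (0.52 ± 0.13) and Hsp90ab1 (0.28 ± 0.07) were higher in LPS + JQ1 than in LPS + IL-10, and Hspa8 was lower (-0.84 ± 0.04). These 7 calls had adjusted p-values of 9.48e-05 or below, and 23.8% of all genes were called higher and 31.6% lower. Dnajb1 (0.12, adjusted p = 0.24), Hspd1 (0.22, adjusted p = 0.129) and Hsf1 (-0.02, adjusted p = 0.918) did not pass. With TMM scaling Dnajb1 (0.23, adjusted p = 0.0219) and Hspd1 (0.32, adjusted p = 0.0212) passed as well, and Hspd1 also without LPS + IL-10 replicate 3 (0.34, adjusted p = 0.0172). LPS on top of JQ1 raised 7 of the 10 genes relative to JQ1 alone, where 27.6% of all genes were called higher and 31% lower, and 4 were higher and 2 lower when scaled to library totals (16.2% and 47.1% of all genes).

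Because the scaling moved these results, the members were also compared with each other within each library, where the scaling of a library cancels in a ratio. These ratios of TPM are given as values, since 3 libraries against 3 cannot reach a p below 0.1 in an exact permutation test. The sum itself depends on the scaling. The 10 genes together held 2016 ± 135 TPM in unstimulated, 2217 ± 112 TPM in LPS and 2288 ± 44.1 TPM in LPS + JQ1 libraries. Their normalised counts, in contrast, summed to 29976 ± 916 in unstimulated, 57328 ± 1368 in LPS and 50178 ± 1326 in LPS + JQ1 libraries. The make-up of the sum differed between groups. Hspa8 made up 60.4% ± 0.12 of the sum in unstimulated, 61.7% ± 0.51 in LPS and 65.5% ± 0.87 in LPS + IL-10 libraries, but 55.4% ± 0.69 in JQ1 and 43.1% ± 0.44 in LPS + JQ1 libraries (SD, n = 3).

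The inducible HSP70 genes gained on the constitutive one. Hspa1a and Hspa1b together stood at 0.582% ± 0.15 of Hspa8 in unstimulated, 2.11% ± 0.13 in JQ1, 3.03% ± 0.54 in LPS, 12.1% ± 1.32 in LPS + JQ1 and 1.92% ± 0.32 in LPS + IL-10 libraries. The libraries with LPS + JQ1, at 11.2% to 13.6%, lay above all others, and the LPS + IL-10 libraries overlapped the JQ1 libraries. The ratio of Hsp90aa1 to Hsp90ab1 followed the same order of JQ1 and LPS, from 0.19 ± 0.01 in unstimulated through 0.23 ± 0.01 in JQ1 and 0.31 ± 0.05 in LPS to 0.44 ± 0.03 in LPS + JQ1 libraries. Hsph1 stood at 1.23% ± 0.13 of Hspa8 in unstimulated, 0.329% ± 0.04 in LPS and 1.31% ± 0.12 in LPS + JQ1 libraries. The ratio of Hspa1b to Hspa1a was 0.74 ± 0.22 in unstimulated and 0.79 ± 0.16 in JQ1 libraries, against 2.28 ± 0.22 in LPS, 1.55 ± 0.10 in LPS + JQ1 and 1.70 ± 0.06 in LPS + IL-10 libraries. It was above 1 in all libraries with LPS and in 1 IL-10 library, and it rests on how reads shared by the pair were divided.

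**Figure D4:**
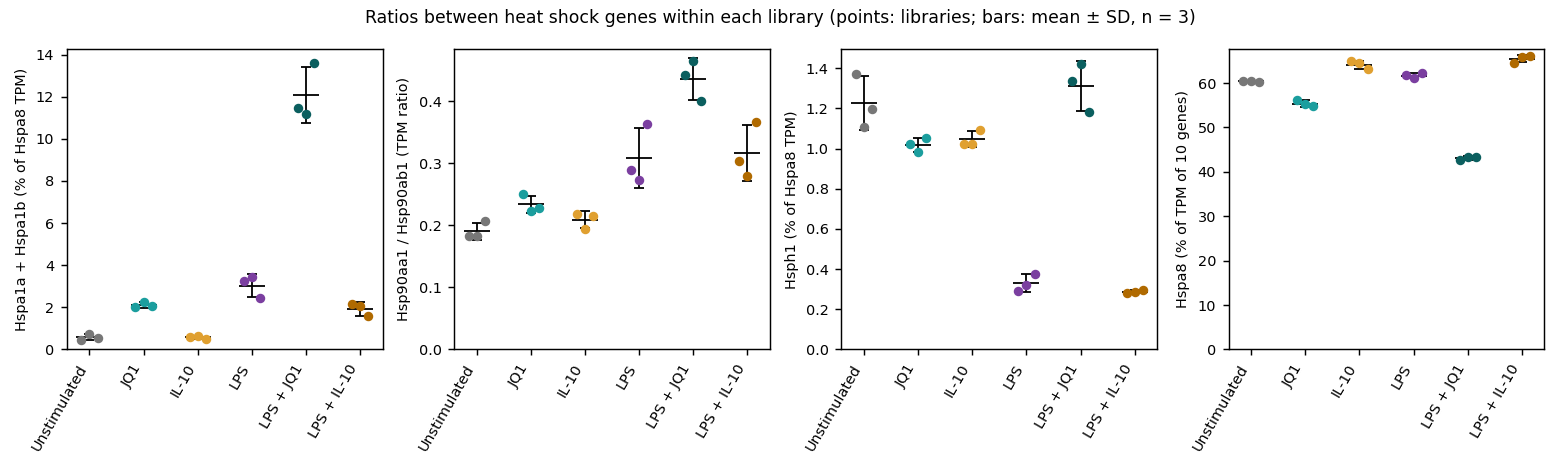
Ratios between heat shock genes within each library, from TPM, by treatment group (linear axes that start at 0). Points are libraries, and bars give the mean ± SD (n = 3). Hspa1a + Hspa1b as a share of Hspa8 is highest in LPS + JQ1 (12.1%), and the share of Hspa8 in the sum of the 10 genes is lowest there (43.1%).

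**Figure D5:**
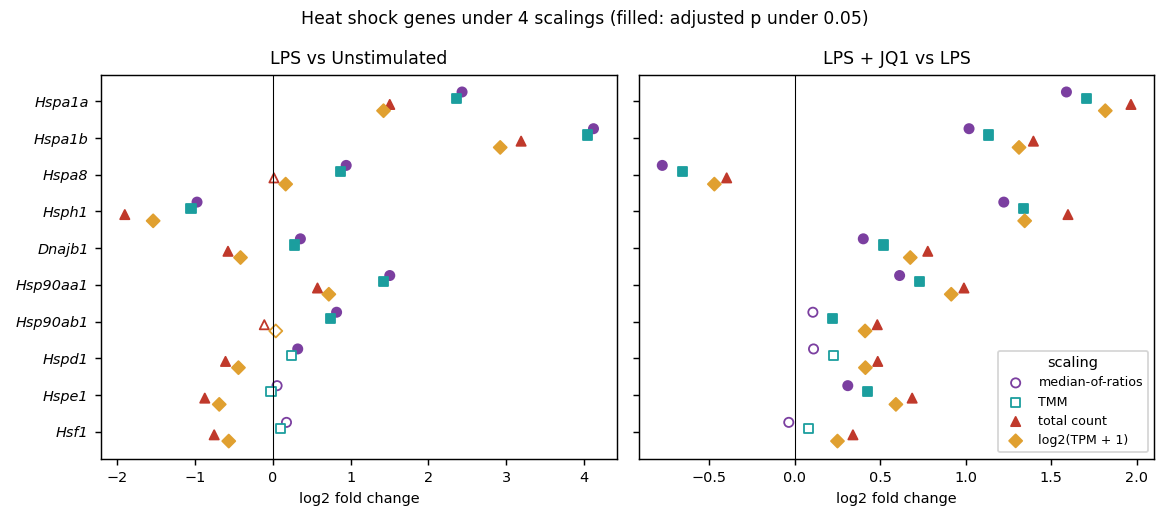
Log2 fold changes of the 10 heat shock genes for LPS against Unstimulated (left) and LPS + JQ1 against LPS (right) under 4 scalings, with filled symbols for an adjusted p under 0.05. On the left, Dnajb1 and Hspd1 lie above 0 with median-of-ratios and TMM scaling, where Hspd1 passed with median-of-ratios but not with TMM. Both lie below 0 with library totals and TPM. On the right, Hspa8 is below 0 and Hspa1a, Hspa1b, Hsph1, Dnajb1, Hsp90aa1 and Hspe1 are above 0 under all 4.

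The wider chaperone network was described through 82 further genes in 7 lists. With LPS, 43 of the 78 tested were called higher and 12 lower, and their median log2 fold change was 0.34 against -0.07 over all genes tested. Scaled to library totals, 16 were called higher and 47 lower of 77, where 15.2% of all genes were called higher and 60.5% lower, against 31.6% and 32.9% with median-of-ratios scaling. With JQ1 in LPS-stimulated cells, 19 were called higher and 32 lower of 77 (median -0.16 against -0.11 over all genes), where 24.4% of all genes were called higher and 32.9% lower. Under TMM 24 were higher and 23 lower (28.1% and 28% of all genes), and scaled to library totals 35 were higher and 14 lower (37.7% and 20.4%). The 8 subunits of TRiC, the cytosolic chaperonin that folds actin and tubulin, were all called higher with LPS (median 0.90) and 7 of 8 lower with JQ1 in LPS-stimulated cells (median -0.31). Scaled to library totals, 2 subunits were higher and 3 lower with LPS, and 3 were higher and 1 lower with JQ1. Of 19 DNAJ co-chaperone genes, 12 were called higher and 2 lower with LPS (6 and 10 scaled to library totals), and 2 higher and 10 lower with JQ1 in LPS-stimulated cells (5 and 7 scaled to library totals).

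Some genes of the network were called in the same direction with library totals. Dnaja2, Dnaja1 and Dnajb6, DNAJ partners of HSP70, rose with LPS by 3.15 ± 0.11, 2.54 ± 0.09 and 2.50 ± 0.08 on the log2 scale (adjusted p = 2.38e-176, 1.87e-188 and 3.07e-240). Their mean normalised counts were 8143, 4823 and 5535 in LPS libraries and lower in LPS + JQ1 libraries, at 3114, 2136 and 2864. That difference is not given here under library totals. Stip1, the adaptor HOP that links HSP70 to HSP90, had 692 ± 25.4 normalised counts in unstimulated, 1398 ± 56.2 in JQ1, 3761 ± 302 in LPS and 4621 ± 204 in LPS + JQ1 libraries (SD, n = 3). In normalised counts it was thus ordered across these groups as Hspa1a, Hspa1b and Hsp90aa1 were. In TPM, Hspa1a did not keep this order, with 12.8 ± 1.28 in JQ1 and 12.5 ± 1.28 in LPS libraries. Hspb1, the small heat shock protein HSP27 and a target of HSF1, had 3.35 to 7.71 normalised counts in unstimulated, 9.82 to 34.1 in LPS and 179 to 208 in LPS + JQ1 libraries, and JQ1 in LPS-stimulated cells raised it by 3.10 ± 0.32 (adjusted p = 2.27e-21). Hspa2, an HSP70 gene best known from testis, rose with JQ1 by 1.22 ± 0.19 without LPS and by 1.83 ± 0.20 with LPS (adjusted p = 1.25e-09 and 1.34e-18). Hspa4l, an HSP110 relative of Hsph1, went against it. It had 260.4 ± 6.28 normalised counts in unstimulated, 791 ± 70.5 in LPS and 257 ± 20.3 in LPS + JQ1 libraries (JQ1 effect with LPS -1.62 ± 0.12, adjusted p = 8.35e-40). Bag3, a co-chaperone of HSP70 in autophagy, followed Hsph1 in sign, with -0.62 ± 0.13 for LPS (adjusted p = 5.23e-06), -0.42 ± 0.13 for JQ1 alone (adjusted p = 0.00337) and 0.43 ± 0.13 for JQ1 in LPS-stimulated cells (adjusted p = 0.00269).

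Across the 18 libraries, which share 6 groups and 1 set of size factors, the members fell along a few patterns. Pearson's r of variance-stabilised counts was 0.96 between Hspa1a and Hspa1b, 0.97 between Hspa1b and Hsp90aa1, 0.98 between Hspa1b and Hsp90ab1 and 0.92 between Hspa1a and Dnajb1. Hspa8 and Hsph1 ran in opposite directions (r = -0.90), and Hspa8 and Hspa1a were loosely related (r = 0.32). Among 8368 genes with a mean of at least 100 normalised counts, the gene outside the members most like Hspa1a was Brd2 (r = 0.98), which encodes a BET protein. The closest to Hspa1b was Trpm4 (r = 0.99), to Hspa8 Edn1 (r = 0.99), to Hsph1 Pde4dip (r = 0.95), to Dnajb1 Pfkl (r = 0.97), to Hsp90aa1 Nckap1l (r = 0.99) and to Hsp90ab1 H2-D1 (r = 0.99). The best matches of Hspd1 (Dhx9, r = 0.93), Hspe1 (Rraga, r = 0.92) and Hsf1 (Ncln, r = 0.86) were less close. These values describe likeness over the 6 treatments and carry no test. They rest on median-of-ratios scaling and were not computed under the other scalings. With library totals the LPS changes were 0.02 for Hspa8, -0.57 for Dnajb1 and -0.11 for Hsp90ab1 on the log2 scale, so the likeness may differ there.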

How the data were processed

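RNA from 18 BMDM cultures was measured. The authors made stranded, ribosomal RNA-depleted libraries, sequenced paired ends, extracted reads with TagDust, aligned them with STAR (genome build mm9) and counted by gene in RSEM 1.2.31 under default settings, in which strand is ignored and reads that match several genes are divided. The deposited expected counts were rounded to whole numbers (5.40% to 6.63% of genes per library were not whole). The deposited TPM are the authors' length-scaled abundances, and the deposited effective lengths entered an offset. FPKM values in the same files, also by the authors, did not enter any step. Depth was 6781952 to 28289498 expected counts per library. The floor of 3 counts thus corresponded to 0.106 to 0.442 CPM, and it covers counting error only.

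DESeq2 1.42.0 (R 4.3.3; Wald test, median-of-ratios scaling, group as the single term, all 18 libraries) was fitted over all genes, with the threshold at 0.05 for p-values adjusted after Benjamini-Hochberg. The 7 comparisons between groups shared control libraries, and 2 interactions were tested. The fit was run on simulated counts for LPS against Unstimulated over 14300 genes, of which 14100 were unchanged. It called 49 of 50 genes changed by a log2 fold change of 1 and 50 of 50 changed by 2, in either direction. It also called 21 of the 14100 unchanged genes. In the data, 9656 of 14965 genes were called for this comparison. How the fit performs with that many changed genes was not tested, and neither was the choice of scaling. edgeR 4.0.16 and limma 3.58.1 served as alternatives, the latter on log2(TPM + 1) and log2(TPM + 0.1) for genes with at least 1 TPM in at least 3 libraries. The series text calls the cultures matched and the labels name 3 mice, but no source used here ties a replicate number to a mouse, so a block on that number served as an alternative. Replicates differed beyond sampling noise (chi-square per degree of freedom 4.14 to 30.5 over 18 pairs), so each counted once. Lane 7 held replicate 1 and lane 8 replicate 3, whereas replicate 2 was split, its LPS libraries on lane 8 and the others on lane 7.

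Members, chaperone lists and tests were chosen with earlier results of these data known. The 10 members were named whatever their values. Chaperone genes were named when among the 3 largest called changes of a comparison with a mean of at least 100 normalised counts, and Bag3, Hspb1, Stip1, Ahsa1, Chordc1, Hspa5 and Hsp90b1 always. For each member, the non-member gene with the highest Pearson's r was named. Promoter sequences (250 bases before to 50 after the start, RefSeq GRCm38.p6) were found for Hspa1a, Hspa1b, Hsph1, Dnajb1, Hspd1 and Hspe1, not for Hsp90aa1, Hsp90ab1, Hspa8 and Hsf1. Gene positions are those of GENCODE vM1 on mm9.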

Additional observations from a re-analysis of the deposited data

Results flagged for a closer look

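A treatment effect that differed with and without LPS, by an interaction term in DESeq2, was found for 3 of the 10 heat shock genes. Of all genes tested, 41.5% had a called interaction of LPS and JQ1 and 7.44% one of LPS and IL-10, so the share of members is no higher than the former. For Hsph1 the JQ1 effect was higher with LPS by 1.47 ± 0.16 on the log2 scale (adjusted p = 1.65e-19), from -0.25 without LPS to 1.22 with LPS. For Hspa8 it was lower with LPS by -0.80 ± 0.05 (adjusted p = 1.7e-56), from 0.03 to -0.77. For Hspa1b it was lower with LPS by -1.0 ± 0.26 (adjusted p = 5.41e-04), from 2.02 to 1.02, and this difference did not pass when scaled to library totals (-0.44, adjusted p = 0.127). The IL-10 effect on Hspa1b was also lower with LPS, by -1.09 ± 0.27 (adjusted p = 0.00149), from 0.35 to -0.74. Summed with its near-identical copy Hspa1a, the interaction with IL-10 was -0.77 ± 0.24 (adjusted p = 0.0228), and -0.67 when scaled to library totals (adjusted p = 0.0379).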

How the results depend on the processing

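Of 1812 refits of single heat shock genes, 1682 left a call or its absence as it was, 54 lost a call and 46 gained one. Turns of direction without a call in either fit were counted as unchanged. The other 30 turned direction with a call in the reported fit, the alternative or both. Of these 30, 11 had a call in the reported fit (7 of them also in the alternative) and 19 had one in the alternative alone. All 30 came from library totals or TPM. Values below are for library totals, log2(TPM + 1) and log2(TPM + 0.1) in that order. For LPS against Unstimulated they were -0.57, -0.41 and -0.43 for Dnajb1, -0.61, -0.44 and -0.45 for Hspd1, -0.87, -0.69 and -0.70 for Hspe1 and -0.75, -0.56 and -0.60 for Hsf1, and -0.11 with library totals for Hsp90ab1. Hspa8 with JQ1 alone had -0.14, -0.17 and -0.17, and LPS + JQ1 against JQ1 had -0.24, -0.13 and -0.13, with -0.04 for Dnajb1 under library totals. Hsf1 had 0.34, 0.25 and 0.27 for LPS + JQ1 against LPS, and 0.26 under library totals against LPS + IL-10. The interaction of LPS and JQ1 was 0.54, 0.48 and 0.50 for Dnajb1 and 0.40, 0.36 and 0.36 for Hsp90ab1. Its called members numbered 6, 6 and 6 in place of 3, and those of the LPS and IL-10 interaction 2, 2 and 2 in place of 1. Of all genes, 52.3% and 59.8% had a called LPS and JQ1 interaction with library totals and log2(TPM + 1), against 41.5% in the reported fit. For the LPS and IL-10 interaction, 938 of 10490 and 615 of 11436 genes were called, against 804 of 10808. With IL-10 alone, 0 members in place of 1 passed in edgeR and in limma on log2(TPM + 1) and log2(TPM + 0.1), and 0 when only these groups were fitted (1, 2, 2 and 2 at an unadjusted p under 0.05). Of all genes, 171 of 11436 passed for IL-10 alone with log2(TPM + 1), against 358 of 12727 in the reported fit. Shares of all genes are not given for edgeR, log2(TPM + 0.1) or the fits of only the groups compared. For LPS + IL-10 against LPS, 1 in place of 3 passed with only these groups. The cause was not tested.

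Leaving out 1 library gave 0 to 1 called members for IL-10 alone (0 without IL-10 replicate 1), 1 to 2 for LPS + IL-10 against LPS (1 without LPS + IL-10 replicate 2) and 1 to 2 for the LPS and IL-10 interaction (2 without LPS + IL-10 replicate 3). Where it leaves a group with 2 libraries, the spread is shared with the other groups. Same-numbered libraries deviated together in part. Every correlation of their deviations was over 0.1 for IL-10 alone and for LPS + IL-10 against LPS (0.277 to 0.752), whereas those for LPS + JQ1 against LPS and against LPS + IL-10 ran from -0.312 to 0.251. In 4 of the 7 comparisons all 6 libraries correlated best with their own number, a hint from the data and not from the design. The replicate block changed 3 calls. Hsph1 was lost (adjusted p = 0.0507) and Hspd1 gained (adjusted p = 0.0314) for JQ1 against Unstimulated, which left 7 members called, and Hsp90ab1 was lost for LPS + IL-10 against LPS (adjusted p = 0.0555), which left 2. With the block, 8 members were called for LPS against Unstimulated, 7 for LPS + JQ1 against LPS and 3 for the LPS and JQ1 interaction, and no other call changed. Shares of all genes are not given for the block or for fits with 1 library left out, so these counts describe the members alone. The lane covariate and the offset for gene length changed no call. Refits of the summed pair with library totals, TPM or the block were added after the data had been seen. With TPM its LPS and JQ1 interaction was -0.07 (adjusted p = 0.751). At these depths Hspb1 rests on few counts without LPS.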

Other observations

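Chaperones of the endoplasmic reticulum were called in several comparisons. Hspa5, the HSP70 of that compartment, had 4611 ± 430 normalised counts in unstimulated, 7043 ± 555 in JQ1, 5918 ± 150 in IL-10, 20557 ± 829 in LPS, 16326 ± 571 in LPS + JQ1 and 21458 ± 1224 in LPS + IL-10 libraries (SD, n = 3). LPS raised it by 2.15 ± 0.07 on the log2 scale (adjusted p = 9.79e-183) and IL-10 alone by 0.36 ± 0.07 (adjusted p = 2.53e-04). JQ1 raised it without LPS (0.61 ± 0.07, adjusted p = 5.97e-15) and lowered it with LPS (-0.33 ± 0.07, adjusted p = 1.87e-05), although scaled to library totals the latter was 0.04 (adjusted p = 0.709). Hsp90b1, the HSP90 of the same compartment, was lower with JQ1 in LPS-stimulated cells (-0.53 ± 0.09, adjusted p = 5.05e-09), and higher with IL-10 both without LPS (0.29 ± 0.09, adjusted p = 0.0393) and with LPS (0.24 ± 0.09, adjusted p = 0.0367). Scaled to library totals, its JQ1 difference with LPS was -0.16 (adjusted p = 0.167) and its IL-10 difference without LPS was 0.28 (adjusted p = 0.108).

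Of 24 co-chaperone genes of HSP70 and HSP90, 9 were called higher and 2 lower with JQ1 alone (21.9% and 23.7% of all genes), and 5 and 3 when scaled to library totals (12.2% and 33.4%). With JQ1 in LPS-stimulated cells, 10 were called higher and 7 lower (24.4% and 32.9%), and 15 and 3 with library totals (37.7% and 20.4%). Fkbp5, an HSP90 co-chaperone of steroid receptors, had 179 ± 0.73 normalised counts in unstimulated, 444 ± 9.27 in JQ1, 597 ± 30.03 in LPS and 1332 ± 19.2 in LPS + JQ1 libraries. Hspbp1, which releases nucleotide from HSP70, fell from 332 ± 21.5 to 140.3 ± 7.14 with JQ1 alone (-1.24 ± 0.12 on the log2 scale, adjusted p = 2.74e-22). Bag4 had 220 ± 19.2 normalised counts in unstimulated, 224 ± 5.92 in JQ1, 39.7 ± 11.7 in LPS and 122 ± 20.8 in LPS + JQ1 libraries. With JQ1 in LPS-stimulated cells Bag4 was thus higher by 1.62 ± 0.20 (adjusted p = 1.37e-15), but still below all unstimulated libraries. Chordc1 was lower with JQ1 in LPS-stimulated cells (-0.53 ± 0.16, adjusted p = 0.00249). Chordc1 did not pass when scaled to library totals (-0.16, adjusted p = 0.462). Grpel2, a mitochondrial nucleotide exchange factor from the list of organelle chaperones, was 1.35 ± 0.14 higher in LPS + JQ1 than in LPS + IL-10 (adjusted p = 8.86e-21). With IL-10 in LPS-stimulated cells, Dnajb4 (-1.06 ± 0.22, adjusted p = 1.52e-05) and Dnajb6 (-0.44 ± 0.07, adjusted p = 2.64e-08) were lower. So were Dnajc2 (-0.43 ± 0.11, adjusted p = 0.00147) and Ahsa1 (-0.36 ± 0.10, adjusted p = 0.00438), the activator of the HSP90 ATPase. Dnajc2 and Ahsa1 passed with library totals (adjusted p = 0.0283 and 0.0465) but not with TPM (adjusted p = 0.0874 and 0.0985). Without LPS, IL-10 raised 2 of 74 wider chaperone genes tested, Hspa5 and Hsp90b1, where 1.8% of all genes were called higher. With library totals 1 of 73 was called higher, and with TPM 0 of 70 were.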
